A study of Homo sapiens with 6 samples.

Results

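The CXC chemokines CXCL1, CXCL2, CXCL3, CXCL8 and CXCL16 were followed in MDA-MB-231 cells, a basal-like triple-negative human breast cancer cell line, 24 h after 10 Gy of gamma radiation. These 5 genes were taken by name from a table of 58735 genes, and they were picked because CXCL2 and CXCL3 were among the largest falls in the same comparison. Their changes at 10 Gy are therefore given as a description, with no p-value or call. RNA sequencing covered 6 libraries, 3 from cells left at 0 Gy (control) and 3 from cells given 10 Gy from a 137Cs source. Cells of both groups carried the non-targeting shRNA that the study calls shSCR, and the labels give their genotype as WT. Both groups were grown in the same serum-containing medium, and no other dose, time or cell line was used. Nothing in the labels says whether the 3 libraries of a dose came from separate irradiations or cultures, so the p-values measure only the spread between these libraries, which may be technical.

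Chemokines are small secreted proteins that guide white blood cells along concentration gradients. CXCL1, CXCL2, CXCL3 and CXCL8 (interleukin-8) form the neutrophil-attracting branch of the CXC family. They signal through CXCR2, and CXCL8 also through CXCR1. Their genes lie together on chromosome 4, are switched on by IL-1 and TNF through NF-kB, and make short-lived mRNAs whose 3′ UTRs hold AU-rich elements. CXCL16 differs in build and position. It is made as a membrane protein with a chemokine head on a mucin-like stalk, is cut from the cell surface by ADAM10 and ADAM17, binds CXCR6, and is encoded on chromosome 17.

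The values were FPKM, the reads of a gene scaled to the gene's length in kilobases and to the depth of its library. Between 15643641 and 28861781 reads per library stood behind them. All 7 marker genes listed for the cell line (VIM, CD44, KRT8, KRT18, EGFR, CAV1 and ANXA1) were present at means between 29.8 and 301 FPKM at 0 Gy. The presence of these genes does not by itself identify the line. Their summed level was 837 to 885 FPKM at 0 Gy and 751 to 772 FPKM at 10 Gy, without overlap. VIM, CAV1, ANXA1 and CD44 were called lower (changes of -0.11 to -0.26 on the log2 scale used below). They were 57.1% of the list, against 23.7% of all genes tested. These sums and calls are as deposited and depend on the depth scaling described below, where genes at 50 FPKM or more had a median change of -0.14. The markers were not compared under other scalings. Of 4 luminal markers, only GATA3 reached a mean of 1 FPKM (3.05 FPKM at 0 Gy), and PGR was at 0 in every library. Of 8 immune cell markers, only CD14 reached a mean of 1 FPKM. The summed level of the immune list was 1.49 to 2.63 FPKM at 0 Gy and 2.16 to 3.27 FPKM at 10 Gy. Immune markers at 0 in every library included CD3E and CSF3R. The sum over 6 stromal and endothelial markers was 2.43 to 2.63 FPKM at 0 Gy and 3.43 to 3.59 FPKM at 10 Gy, so it did not overlap between doses. That sum came mainly from PECAM1 (1.22 and 1.94 FPKM, called higher) and PDGFRB (1.19 and 1.44 FPKM, not called). CDH5, LUM, VWF and DCN had means of 0.0877 FPKM or less at either dose. The part of these marker changes in the chemokine values was not tested. As these are bulk libraries, fewer chemokine-producing cells and less chemokine mRNA per cell cannot be told apart.

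The 4 neighboring chemokine genes occupied 359 kb of chromosome 4 on GRCh38. CXCL8 (ENSG00000169429) lay at chr4:73740506-73743716 on the plus strand and CXCL1 (ENSG00000163739) at chr4:73869393-73871242, also on the plus strand. CXCL3 (ENSG00000163734) at chr4:74036589-74038807 and CXCL2 (ENSG00000081041) at chr4:74097035-74099293 lay on the minus strand, 58.2 kb apart. CXCL16 (ENSG00000161921) lay at chr17:4733526-4739922 on the minus strand.

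The sequence just before the RefSeq start of each chromosome 4 gene is shown because all 4 carried the same 9 bases, GGAATTTCC. These are given in capitals and are a core of the kind that NF-kB binds. The sequences are RefSeq promoters on GRCh38.p14, each the 150 bases before the RefSeq start, read 5′ to 3′ on the gene's own strand. Of the 5 genes, 4 had an entry. The RefSeq start of CXCL1 matched the gene coordinates above. Those of CXCL2, CXCL3 and CXCL8 lay inside the intervals above, so part of each window does too. The capitals of CXCL2 and CXCL3 fall inside those intervals, and those of CXCL1 and CXCL8 before them.
CXCL1, chr4:73869243-73869392, plus strand: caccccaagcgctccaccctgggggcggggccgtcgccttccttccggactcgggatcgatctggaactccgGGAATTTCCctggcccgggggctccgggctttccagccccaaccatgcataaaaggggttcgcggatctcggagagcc
CXCL2, chr4:74099196-74099345, minus strand: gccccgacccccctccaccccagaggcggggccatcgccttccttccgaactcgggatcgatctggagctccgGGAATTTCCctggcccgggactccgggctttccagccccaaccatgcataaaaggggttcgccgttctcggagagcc
CXCL3, chr4:74038690-74038839, minus strand: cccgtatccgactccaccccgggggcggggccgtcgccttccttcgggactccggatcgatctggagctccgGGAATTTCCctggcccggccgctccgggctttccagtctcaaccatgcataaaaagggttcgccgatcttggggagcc
CXCL8, chr4:73740419-73740568, plus strand: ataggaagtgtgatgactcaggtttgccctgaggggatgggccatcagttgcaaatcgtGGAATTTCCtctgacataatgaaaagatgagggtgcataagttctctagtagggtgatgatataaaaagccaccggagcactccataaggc

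Counted back from the RefSeq start, the first base of the capitals stood at -78 in CXCL1 and CXCL3. It stood at -77 in CXCL2 and at -91 in CXCL8. The search covered both strands of the 300 bases from 250 before to 50 after each start, and 162 of 35116 such promoters (0.461%) held these 9 bases. The genes differed around that shared core. The CXCL8 promoter alone among the 4 held TGANTCA, the AP-1 motif (at -137, in 7.71% of all promoters), and TATAAA (at -31, in 11.5%). The search was for exact letters. The sequences printed for CXCL1, CXCL2 and CXCL3 hold CATAAA, which differs from TATAAA in its first letter only. CXCL1 and CXCL3 held GGGCGG, the core of an Sp1 motif (at -128, in 45.0% of all promoters), while CXCL2 and CXCL8 did not. A match of letters describes this window and is not a measurement of binding. Over the 250 bases before the start, CXCL1 and CXCL3 were the most alike pair, with 81.4% identical bases, against 67.9% for CXCL1 and CXCL2 and 73.3% for CXCL2 and CXCL3. Identity of any of the 3 with CXCL8 was 39.1% to 42.8%.

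The 3′ UTRs are shown because they carry the AU-rich elements by which such mRNAs are recognized, with each ATTTA in capitals. Each window is the 30 bases of the main GENCODE 29 transcript with the most ATTTA, in the DNA letters of the reference.
CXCL1, chr4:73870679-73870708, plus strand: tctATTTATTTATTTAttcattagttttga
CXCL2, chr4:74097584-74097613, minus strand: tctATTTATTTATTTATTTATTTAtttgtt
CXCL3, chr4:74037076-74037105, minus strand: cttATTTAtgtATTTAtttttgaaagcttg
CXCL8, chr4:73743111-73743140, plus strand: cctATTTAttATTTAtgtATTTATTTAagc
CXCL16, chr17:4734281-4734310, minus strand: ctcATTTAaaaacggttatactataaaatc

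CXCL2 had the densest array, with 10 ATTTA in a 3′ UTR of 721 bases (13.9 per kb), a density reached by 0.769% of 18848 protein-coding genes. CXCL3 followed with 7 in 673 bases (10.4 per kb, reached by 1.55% of genes). CXCL8 had 9 in 1252 bases (7.19 per kb) and CXCL1 had 5 in 706 bases (7.08 per kb). CXCL16 had 1 in 977 bases (1.02 per kb), a density that 54.7% of genes reached. The longer element TTATTTATT was found in the 3′ UTR of CXCL1, CXCL2, CXCL3 and CXCL8 and not in that of CXCL16, against 7.18% of all these genes.

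At 0 Gy, CXCL1 was the most abundant of the 5 mRNAs. Its level was 242, 209.6 and 207 FPKM in control libraries 1, 2 and 3, a mean of 219.6 ± 19.4 FPKM (SD, n = 3), and 1.12% of the 10491 protein-coding genes tested were higher. CXCL8 came next at 73.8, 64.3 and 60.5 FPKM, a mean of 66.2 ± 6.89 FPKM. CXCL2 stood at 41.6, 37.5 and 36.0 FPKM, a mean of 38.3 ± 2.91 FPKM, and CXCL3 at 25.6, 27.2 and 26.1 FPKM, a mean of 26.3 ± 0.783 FPKM. No neighbors in this order overlapped in their control libraries. CXCL16 was far below at 0.403, 0.512 and 0.364 FPKM, which rested on 24, 22 and 22 reads. The SD of CXCL3 was 2.98% of its mean, the same as its counting error of 2.97%, and those of CXCL1 (8.83%), CXCL2 (7.59%) and CXCL8 (10.4%) were above theirs. The median over all genes tested was 5.65%.

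The order of CXCL2 and CXCL3 depended on the gene length used. The deposited table assigns CXCL3 a length of 2219 bases, 2.06 times that of its main GENCODE 29 transcript, whereas the corresponding ratio was 1.18 to 1.33 for the other 4 genes. That length is every base of the CXCL3 interval given above, while the lengths of the other 4 genes are shorter than their intervals. With the length of the main transcript, CXCL3 reached 54.3 ± 1.62 FPKM at 0 Gy and CXCL2 47.2 ± 3.58 FPKM, and their ranges did not overlap. At 10 Gy the same scale put CXCL3 at 20.9 ± 0.775 FPKM, below CXCL2 at 23.0 ± 0.510 FPKM. The places of CXCL1 (259 FPKM at 0 Gy), CXCL8 (88.3 FPKM) and CXCL16 (0.536 FPKM) were not affected. Length cancels in the comparison between doses of a single gene.

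After 10 Gy, CXCL3 fell the most of the 5. Its level was 10.2, 9.68 and 10.4 FPKM in irradiated libraries 1, 2 and 3, a mean of 10.1 ± 0.376 FPKM. The highest irradiated library was far below the lowest control library, which was 2.47 times as high. The mean was 61.6% lower than at 0 Gy, a change of -1.30 on the log2(FPKM + 1) scale, on which all changes below are given. The reads behind it were 1212, 926 and 1256 at 0 Gy and 680, 392 and 499 at 10 Gy. No protein-coding gene among the 10491 tested fell more. The only gene of any kind that did was RNU6-8, a U6 small nuclear RNA gene (-1.67), which is named here after its value was seen.

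CXCL2, whose protein is closely related to CXCL1, fell to 19.1, 18.3 and 18.8 FPKM, a mean of 18.7 ± 0.414 FPKM. The 3 irradiated libraries lay within 1.05-fold of each other and all lay below the control libraries, the lowest of which was 1.88 times the highest irradiated one. The mean was 51.2% lower than at 0 Gy, a change of -0.995. Of the protein-coding genes tested, 3 fell more. They were CXCL3, EIF3CL (-1.26), a near copy of the translation factor gene EIF3C whose reads may be shared with it, and CTGF (-1.03), a secreted matrix-associated protein.

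CXCL1 and CXCL8 fell by less. CXCL1 was at 164, 169 and 174 FPKM at 10 Gy, a mean of 168.9 ± 4.93 FPKM. Its groups did not overlap, and the lowest control library was 1.19 times the highest irradiated one. This was 23.1% lower than at 0 Gy, a change of -0.37, and 318 protein-coding genes fell more. CXCL8 was at 49.6, 51.6 and 56.2 FPKM at 10 Gy, a mean of 52.4 ± 3.39 FPKM. Its groups came closest, with the lowest control library (60.5 FPKM) only 1.08 times the highest irradiated one. The mean was 20.8% lower, a change of -0.33, and 533 protein-coding genes fell more.

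CXCL16 was at 0.491, 0.490 and 0.463 FPKM at 10 Gy, a mean of 0.481 ± 0.0159 FPKM against 0.426 ± 0.0771 FPKM at 0 Gy. The highest and the lowest value of the 6 were both control libraries, so the groups overlapped. These levels rested on 41, 25 and 28 reads at 10 Gy, and counting error alone is 21.0% of the control mean, so a change of the size seen in CXCL1 was not detectable at this depth. CXCL16 did not reach a mean of 1 FPKM and was not tested. Its end overlaps MED11 on the opposite strand, which stood at 5.73 to 6.0 FPKM at 0 Gy and 4.56 to 5.53 FPKM at 10 Gy, and whether strand was used in counting is not given in the sources used here.

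**Figure D1:**
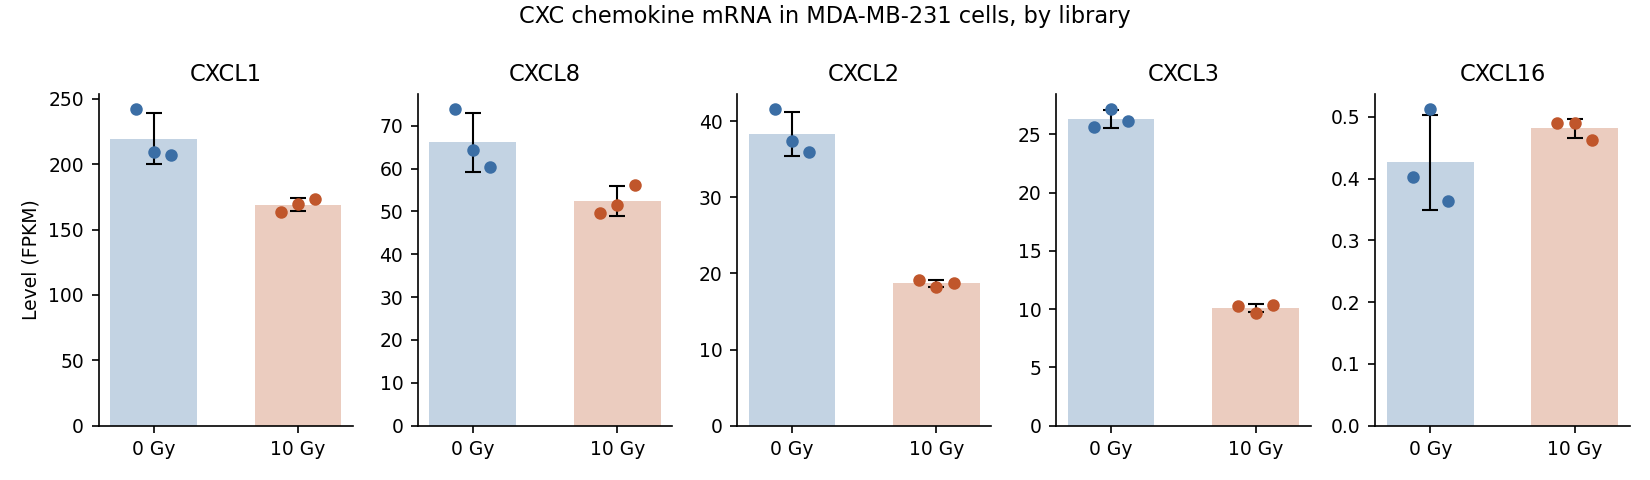
Level of the 5 chemokine mRNAs in FPKM (vertical axis, a scale for each gene starting at 0) at 0 Gy and 10 Gy. Points are libraries, bars are means and error bars are SD (n = 3); CXCL2 and CXCL3 have the widest gaps between doses, and the CXCL16 libraries overlap.

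Of the 5 chemokines, 4 passed the filter on low values. In these 4 every irradiated library was below every control library, as was the case for 32.8% of all 12128 genes tested. The chemokines were selected on this comparison, so nothing is read from their count against that share. As background for the gene lists below, 35.6% of all genes tested were called at an adjusted p under 0.05 (limma, Benjamini-Hochberg), 23.7% lower and 11.9% higher.

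The depth scaling used by the authors mattered for the size of the smaller falls. The deposited values divide by a library factor that was 0.973 to 0.991 of the recovered reads at 0 Gy and 1.03 to 1.04 of them at 10 Gy. The median gene changed by -0.04 as deposited, by 0.07 when the values were rescaled to TPM, a shift of 0.107, and the share of higher genes among those called moved from 33.4% to 74.5%. The 4 chemokines remained lower under each scaling. Relative to the median gene, CXCL3 changed by -1.26 as deposited and -1.25 in TPM, CXCL2 by -0.96 and -0.94, CXCL1 by -0.33 and -0.31, and CXCL8 by -0.29 and -0.27. Abundant genes as a class lay below the median gene. The 889 genes at 50 FPKM or more, a class that includes CXCL1 and CXCL8, had a median change of -0.14, and 13.3% of them fell by more than 0.3. The 3892 genes between 10 and 50 FPKM, where CXCL2 and CXCL3 lie, had a median change of -0.09.

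**Figure D2:**
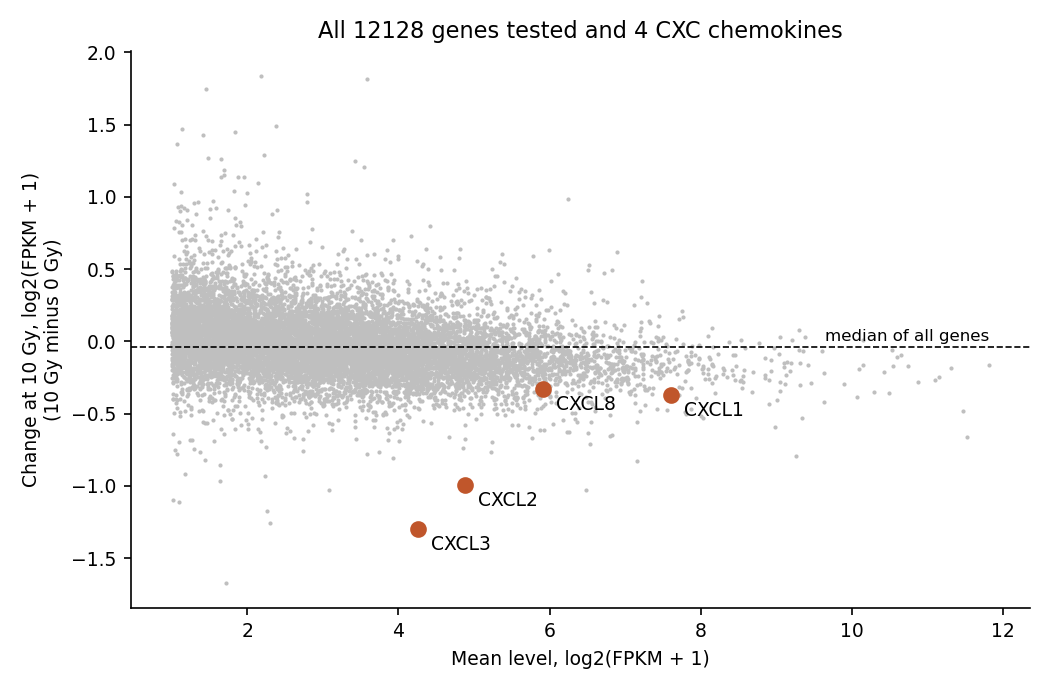
Change at 10 Gy on the log2(FPKM + 1) scale (vertical axis, 10 Gy minus 0 Gy) against mean level, also log2(FPKM + 1), for 12128 genes tested (gray), with the median of all genes as a dashed line. CXCL3 at -1.30 and CXCL2 at -0.995 lie near the lower edge, and CXCL1 at -0.37 and CXCL8 at -0.33 lie within the lower part of the cloud.

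**Figure D3:**
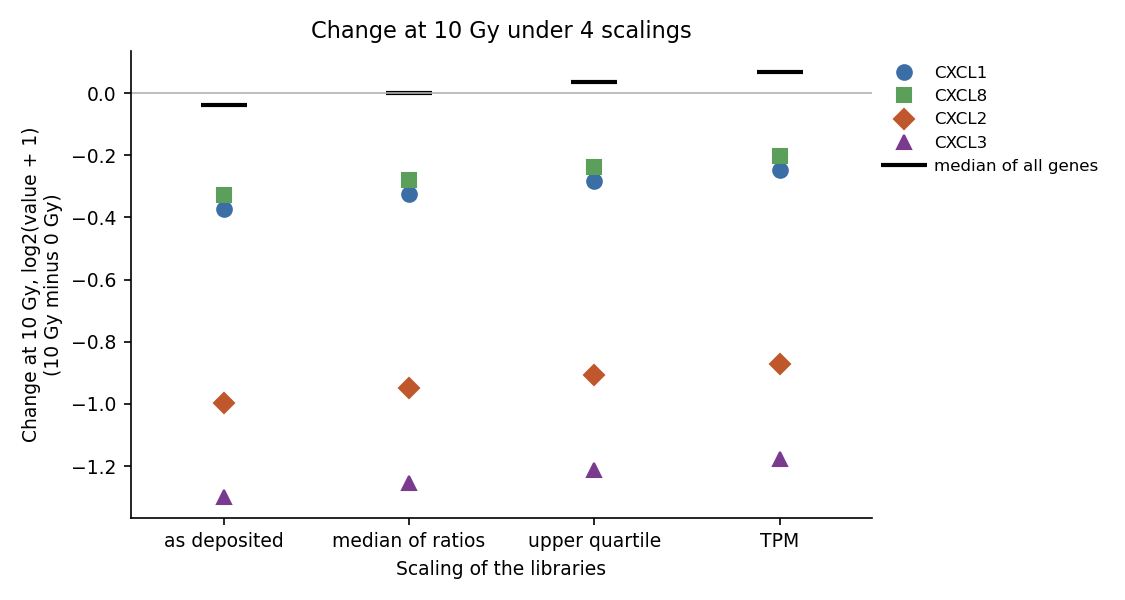
Change at 10 Gy (vertical axis, log2 of the scaled value + 1, 10 Gy minus 0 Gy) of 4 chemokines and of the median gene under 4 scalings of the libraries. All 4 chemokines stay below 0 and keep their order, while the median gene moves from -0.04 as deposited to 0.07 in TPM.

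Ratios between the chemokines within a library do not depend on that scaling. The ratio of CXCL1 to CXCL8 was 3.28, 3.26 and 3.43 at 0 Gy and 3.30, 3.28 and 3.09 at 10 Gy, so the libraries of the doses overlapped. The ratio of CXCL1 to CXCL2 rose from 5.82, 5.59 and 5.77 to 8.58, 9.28 and 9.26, and that of CXCL1 to CXCL3 from 9.45, 7.72 and 7.93 to 16.0, 17.5 and 16.7. CXCL2 and CXCL3 did not fall by the same factor either, since the ratio of CXCL2 to CXCL3 was 1.46 ± 0.142 at 0 Gy and 1.85 ± 0.0418 at 10 Gy, with no overlap. By transcript length the same ratio was 0.871 ± 0.0845 and 1.10 ± 0.0249, so it lay below 1 at 0 Gy and above 1 at 10 Gy. The summed level of the 4 mRNAs went from 350.4 ± 28.5 FPKM to 250.1 ± 8.19 FPKM. Within that sum the part of CXCL1 went from 62.6% to 67.5% and that of CXCL8 from 18.9% to 20.9%, while CXCL2 went from 10.9% to 7.48% and CXCL3 from 7.54% to 4.04%. By transcript length CXCL3 went from 12.1% to 6.66% of the sum and CXCL2 from 10.5% to 7.35%, so that CXCL3 had the larger part at 0 Gy. These ratios use the values on which the genes were picked and are a description.

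**Figure D4:**
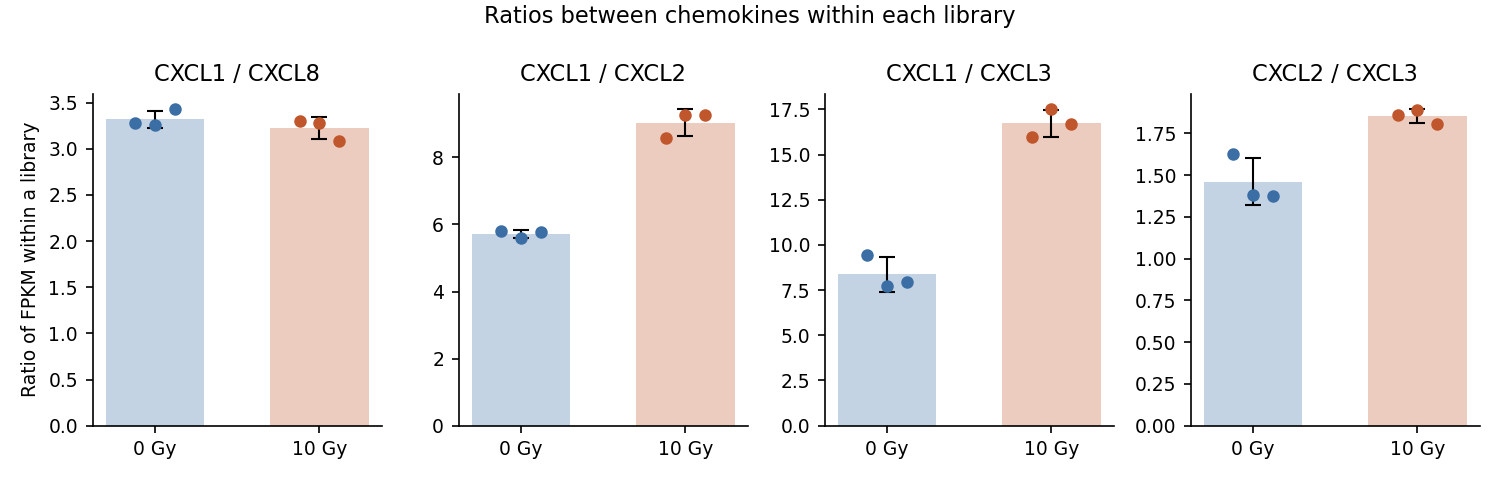
Ratio of FPKM between pairs of chemokines within each library (vertical axis, a scale for each pair starting at 0) at 0 Gy and 10 Gy, with points for libraries, bars for means and error bars for SD (n = 3). CXCL1 over CXCL8 overlaps between doses, and the other 3 ratios do not.

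Sequence was compared with these changes, gene by gene. CXCL2 and CXCL3, with the larger falls, had more ATTTA per kb of 3′ UTR (13.9 and 10.4). CXCL1 and CXCL8, with the smaller falls, had 7.08 and 7.19 per kb. CXCL2 was the densest, although CXCL3 fell more. Other measures did not follow the falls. By count CXCL2 had 10 ATTTA, CXCL8 had 9, CXCL3 had 7 and CXCL1 had 5. In the windows printed above, CXCL3 had 2, CXCL1 had 3, CXCL8 had 4 and CXCL2 had 5. The genes were picked on these falls, and a link between ATTTA and the falls was not tested. Across the other genes tested, the share called lower was smaller in genes with the longer AU-rich element. Of 853 genes with TTATTTATT in the 3′ UTR, 19.7% were called lower, against 26.6% of the 9498 genes without it. These calls are as deposited, where 23.7% of all genes tested were called lower, against 8.84% in TPM. The sets were not matched for level, and a role of the element was not tested. The promoter core GGAATTTCC stood in all 4. Outside the members, 45 genes tested had GGAATTTCC in the promoter, of which 14 (31.1%) were called lower and 7 (15.6%) higher, against 26.0% lower and 11.9% higher among the 8646 genes with a promoter sequence. The wider NF-kB consensus matched CXCL1, CXCL2 and CXCL3 and not CXCL8, and of 1506 other genes with a match 23.1% were called lower and 13.3% higher. CXCL5 and CXCL6, neutrophil-attracting chemokines of the same cluster, also held GGAATTTCC (at -90 and -89), and both were nearly silent at either dose.

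CXCL1, CXCL2 and CXCL3 are close copies of each other, which bears on how their reads can be assigned. Over the last 300 coding bases, identity was 94.0% for CXCL1 and CXCL2, 94.3% for CXCL2 and CXCL3 and 91.3% for CXCL1 and CXCL3. In the 3′ UTR it was 85.7% for CXCL1 and CXCL2 but 60.9% to 61.4% for CXCL3 with either. Of the 50-base stretches of the main transcripts, 5.73% in CXCL1, 9.24% in CXCL2 and 5.26% in CXCL3 occurred exactly in another of the 3, and no stretch of 100 bases did. CXCL8 shared none. How reads that match several places were counted is not given in the sources used here, so the levels of these 3 carry that uncertainty.

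By the distance between profiles over the 6 libraries (Euclidean, on log2(FPKM + 1) minus the control mean), the genes nearest to CXCL2 included CTGF, the nearest (distance 0.107), and THOC6 (0.359), a subunit of the mRNA export complex THO. CTGF was at 128.5, 116 and 111 FPKM in the control libraries and 60.4, 53.4 and 59.2 FPKM in the irradiated ones, a drop of similar size to that of CXCL2. For CXCL3 the nearest were CTGF (0.512), CXCL2 (0.558) and INSYN2B (0.655), all of which fell by less than CXCL3. Nearest to CXCL1 were MB21D2 (0.0554), NME1 (0.0621), a nucleoside diphosphate kinase, and ZCCHC3 (0.0755). Nearest to CXCL8 were DDIT3 (0.0803), the stress-induced transcription factor CHOP, CUTA (0.0822) and NDUFAF8 (0.0897), an assembly factor of respiratory complex I. CXCL16 lay nearest to MAST2 (0.0324), OGA (0.0381) and SLK (0.0392), genes that differed little between doses. CXCL16 had 22 to 41 reads per library, and the added 1 flattens values this low. Its change was 0.06 on this scale and 0.15 with a pseudocount of 0.1, so its small distances do not show a shared profile.

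The other ligands of the family were hardly expressed, and the highest value of any of them in any library was 1.91 FPKM, in PF4. Of 12 other CXC ligands, only PF4, the platelet chemokine CXCL4, reached a mean of 1 FPKM. It was at 1.48, 1.62 and 1.07 FPKM at 0 Gy and 1.88, 1.90 and 1.91 FPKM at 10 Gy, a change of 0.29 with SE 0.0936 (limma, adjusted p = 0.0485), which was lost under 5 of 6 omissions of a library and 3 other settings. CXCL5 was at 0.543 ± 0.118 and 0.445 ± 0.204 FPKM, with overlapping libraries. CXCL6 rested on 2 reads in all 6 libraries. CXCL10, an interferon-induced ligand of CXCR3, was at 0.718, 0.443 and 0.550 FPKM at 0 Gy and 0.569, 0.932 and 1.22 FPKM at 10 Gy, again with overlap.

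No receptor for these ligands reached the filter, so none was tested. CXCR1 and CXCR2, the receptors of the neutrophil-attracting ligands, had 0 reads in all 6 libraries, where 3 reads would allow a level of at most 0.0784 FPKM for CXCR1 and 0.0604 FPKM for CXCR2 in the shallowest library, by counting error only. CXCR6, the receptor of CXCL16, had 4 to 16 reads per library, and the atypical receptor ACKR3 had 1 read in all. Among 27 CC, CX3C and XC ligands, 3 were tested and 0 were called by limma, with 2 at an unadjusted p under 0.05. CCL20 was at 1.11 ± 0.12 and 1.49 ± 0.263 FPKM (change 0.24, adjusted p = 0.0893), and was called higher in TPM (adjusted p = 0.0442) and among protein-coding genes alone (adjusted p = 0.0319). CCL28, named after its values were seen as the most abundant of the 3, was at 3.55 ± 0.182 and 3.10 ± 0.073 FPKM, with each irradiated library below each control library (change -0.15, adjusted p = 0.0522). CCL2 and CCL5 stayed below 1 FPKM in every library, CCL2 with 7 reads in all.

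The enzymes that release CXCL16 were present. ADAM10, the protease for its constitutive release, was at 8.22, 8.74 and 8.57 FPKM at 0 Gy and 9.40, 9.52 and 9.06 FPKM at 10 Gy, a change of 0.12 with SE 0.0384 (limma, adjusted p = 0.0475). That call was lost whichever library was left out. ADAM17, the inducible protease, was at 4.17 ± 0.0606 and 4.0 ± 0.0976 FPKM (change -0.05, adjusted p = 0.409), and its direction turned under other scalings.

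Upstream of the ligands, the IL-1 and TNF pathway had 18 of 19 genes tested, with 2 called higher, 5 lower and 11 not called, and a median change of -0.04, the same as over all genes to 2 decimals. IRAK1, a kinase of the IL-1 receptor, fell from 71.9 ± 1.64 to 55.0 ± 1.43 FPKM (change -0.38, SE 0.0332, limma adjusted p = 0.000635). BIRC2, a ubiquitin ligase of the TNF receptor complex, fell from 57.4 ± 0.818 to 45.1 ± 1.32 FPKM (change -0.34, SE 0.0323, adjusted p = 0.000709). The adaptor MYD88 rose by 0.28 (SE 0.0594, adjusted p = 0.0113) and the receptor IL1R1 by 0.29 (SE 0.0806, adjusted p = 0.0289), the latter call being lost without control library 1 or 3 or irradiated library 2 or 3. The genes called lower numbered 2 in TPM and with the median-of-ratios and upper quartile scalings. Of all genes tested, 8.84%, 16.9% and 11.9% were called lower under these scalings, in that order.

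Of 13 NF-kB subunits and inhibitors, 12 were tested, with 1 higher, 3 lower and 8 not called (median -0.09). BCL3, an atypical IkB protein that can act as a coactivator, rose from 14.3 ± 0.635 to 19.1 ± 0.634 FPKM (change 0.40, SE 0.0425, limma adjusted p = 0.00105). NFKBIA, the feedback inhibitor IkB-alpha, fell from 62.3 ± 2.74 to 51.9 ± 0.277 FPKM (change -0.26, SE 0.0370, adjusted p = 0.00269). NFKB1, the p105 and p50 subunit, changed by -0.21 (adjusted p = 0.00739) and NFKBIZ by -0.25 (adjusted p = 0.0147), and both calls were lost in TPM and with upper quartile scaling. RELA (-0.05, adjusted p = 0.237) and TNFAIP3, the deubiquitinase A20 (-0.16, adjusted p = 0.0504), were not called, and RELA turned to 0.08 in TPM.

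NF-kB target genes outside the chemokines moved in both directions. Of 24, 22 were tested, with 3 higher, 9 lower (40.9% of those tested, against 23.7% of all genes) and 10 not called, and a median of -0.13 against -0.04 over all genes. PLAU, the urokinase plasminogen activator, fell from 107 ± 9.65 to 79.3 ± 3.23 FPKM (change -0.43, SE 0.0657, limma adjusted p = 0.00333), and CSF1, the macrophage growth factor, from 102.9 ± 4.35 to 76.8 ± 0.804 FPKM (change -0.42, SE 0.0377, adjusted p = 0.000696). MMP9, a gelatinase, was at 1.99, 1.00 and 1.92 FPKM at 0 Gy and 0.888, 0.844 and 0.850 FPKM at 10 Gy (change -0.48, adjusted p = 0.0444), a call lost under each other scaling and without any 1 library other than control library 2. IL1B rose from 3.13 ± 0.156 to 4.52 ± 0.447 FPKM (change 0.42, SE 0.0682, adjusted p = 0.00428). IL6 (-0.14, adjusted p = 0.0881) and IL1A (-0.02, adjusted p = 0.902), both known targets of the same pathway, were not called, and IL1A changed sign with other scalings. In TPM, 4 of these genes were higher and 6 lower, against 3137 higher and 1073 lower of all 12139 genes tested on that scale.

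Of 10 AP-1 and C/EBP factors, 9 were tested, with 0 higher by limma, 2 lower and 7 not called. FOSL1 fell from 271 ± 2.65 to 195.9 ± 7.45 FPKM (change -0.47, SE 0.0383, limma adjusted p = 0.000593) and JUN from 56.0 ± 2.57 to 42.6 ± 1.00 FPKM (change -0.39, SE 0.0402, adjusted p = 0.000965). CEBPB was at 91.6 ± 7.46 and 94.9 ± 3.14 FPKM (change 0.05, adjusted p = 0.523). At an unadjusted p under 0.05, 3 of these factors were higher. In TPM 4 were called higher, against 3137 of all 12139 genes tested on that scale.

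Of 13 proteins that act on AU-rich mRNAs, all were tested, with 1 higher, 4 lower (30.8% of those tested, against 23.7% of all genes) and 8 not called (median -0.08). HNRNPD (AUF1), which destabilizes such mRNAs, fell by 0.35 (SE 0.0323, limma adjusted p = 0.000700), ZFP36L1 by 0.25 (SE 0.0275, adjusted p = 0.00113) and the endonuclease ZC3H12A by 0.23 (SE 0.0419, adjusted p = 0.00593), and TIAL1, a translational silencer, fell by 0.27 (SE 0.0302, adjusted p = 0.00115). ZFP36, tristetraprolin, was at 7.22 ± 0.75 and 7.93 ± 0.357 FPKM (change 0.12, adjusted p = 0.199). The call of ZC3H12A was lost in TPM, where ZFP36 was called higher (0.24). On that scale 3 of these genes were higher and 3 lower, against 3137 higher and 1073 lower of all 12139 genes tested.

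**Figure D5:**
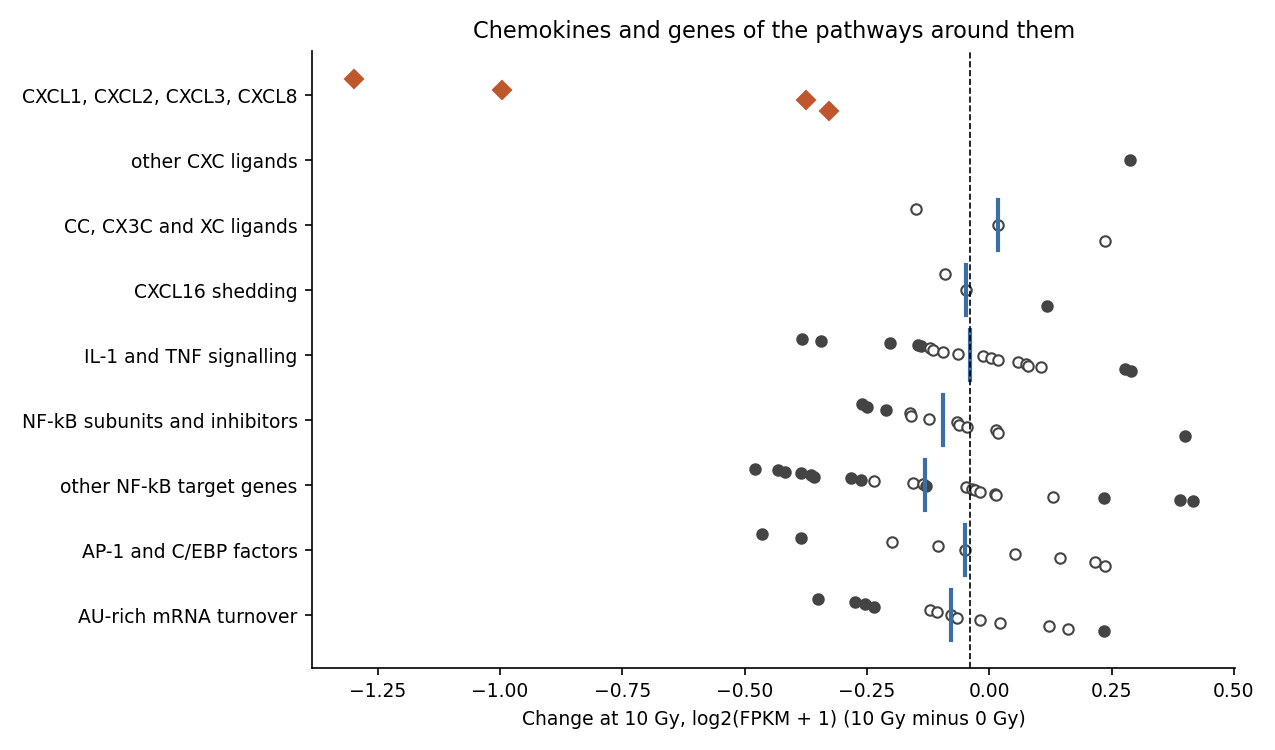
Change at 10 Gy on the log2(FPKM + 1) scale (horizontal axis, 10 Gy minus 0 Gy) of 4 chemokines (diamonds, shown without a call because they were picked on this change) and of the genes tested in each list (circles, filled where called). Blue bars mark list medians and the dashed line the median of all genes; CXCL2 and CXCL3 lie below every circle.

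Genes around the chemokines were counted to see whether the falls extended along the chromosome. Within 500 kb of the chromosome 4 members, 5 of 14 other protein-coding genes were tested, with 1 higher (PF4), 1 lower and 3 not called. The lower one was EREG, an EGF-family growth factor gene, at 3.40 ± 0.170 FPKM at 0 Gy and 2.77 ± 0.0896 FPKM at 10 Gy (change -0.22, SE 0.0517, limma adjusted p = 0.0149), named after its value was seen. PF4 lies between CXCL1 and CXCL3. Within 250 kb of CXCL16, which was itself too low to test, 15 of 27 were tested, with 2 higher and 7 lower. The lower ones were 46.7% of those tested, against 23.7% of all genes. These neighbors were not matched for level, and an effect of position was not tested. In both windows together 11 genes near the members were called, 3 higher and 8 lower, and 3 to 10 when a library was left out. The excess of lower genes depended on the scaling. The lower ones numbered 2 in TPM, 3 with upper quartile and 4 with median-of-ratios scaling, and the higher ones 5, 4 and 4. Of all genes tested, 8.84%, 11.9% and 16.9% were called lower under these scalings, in that order.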

How the data were processed

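Expression values of 6 MDA-MB-231 libraries, 3 at 0 Gy and 3 at 10 Gy, were grouped by the labels. The deposited unit is FPKM, as computed for the authors by the company that prepared and sequenced the polyA libraries. The submitters' processing notes name HISAT2 and GRCh38. The identifiers are those of GENCODE 29, and the counting program, its handling of strand and of reads with several matches, and the source of the gene lengths are not given in the sources used here. Multiplying FPKM by gene length and a library factor gave whole reads (tolerance 0.05) for 100% of values above 0. These recovered reads were used only to describe depth and the reads behind a gene, 15643641 to 28861781 per library in all. Intervals and floors from them cover counting error only. All columns of values belong to these libraries. Columns of gene annotation were used for names, coordinates and lengths. Libraries of shMAFF cells were not analysed here.

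The doses were compared by limma 3.58.1 (R 4.3.3) after adding a pseudocount of 1 and taking log2. Moderation by eBayes allowed for a trend with level. Genes entered at a mean FPKM of 1 or more, which left 12128, and a call required a p, adjusted by the Benjamini-Hochberg method over all of them, below 0.05. This scale understates the change of low genes. The 5 chemokines, the gene lists and the named genes were chosen with earlier results of these data known. Named were the 5 chemokines, up to 4 called genes of each list by size of change, a set of ligands, receptors and regulators listed by name, and for each chemokine the 3 protein-coding genes with the nearest profile, of which 1 is not reported here. The procedure was tested on simulated data. Sequences were searched with Python 3.11.15, and identity was computed with Biopython 1.88. Alternatives covered the pseudocount, the filter, 3 other scalings, the replicate number as a block, eBayes without a trend, protein-coding genes alone and leaving out each library. Levels by transcript length, the counts near the chemokines and the alternatives of single genes were added after seeing the data.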

Additional observations from a re-analysis of the deposited data

How the results depend on the processing

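The lower level of CXCL1, CXCL2, CXCL3 and CXCL8 at 10 Gy kept its direction under each alternative run. CXCL1 changed by -0.41 to -0.25, CXCL2 by -1.04 to -0.87, CXCL3 by -1.37 to -1.18 and CXCL8 by -0.39 to -0.20. The values farthest from those of the report came with TPM scaling (CXCL1 -0.25, CXCL2 -0.87, CXCL3 -1.18, CXCL8 -0.20), upper quartile scaling (CXCL2 -0.91, CXCL3 -1.21) and a pseudocount of 0.1 (CXCL3 -1.37, CXCL16 0.15). At 0 Gy, CXCL3 was at 25.2 in TPM and 25.5 with upper quartile scaling. By transcript length the 0 Gy levels were 259 FPKM for CXCL1, 47.2 for CXCL2, 54.3 for CXCL3, 88.3 for CXCL8 and 0.536 for CXCL16.

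Calls over all genes fell from 4317 to 2711 without irradiated library 1 and to 2651 without irradiated library 2 (2651 to 3975 over all 6 omissions). Higher genes made up 33.4% of calls as deposited, 48.8% with median-of-ratios scaling, 63.9% with upper quartile scaling and 74.5% in TPM, and the cause of the differing library factors was not tested. Genes changed by at least 1.3-fold numbered 700, and 1059 with a pseudocount of 0.1. Without the filter on low values, 0 other CXC ligands, 0 CXCL16 shedding genes, 3 IL-1 and TNF genes and 5 genes near the members were called. With a pseudocount of 0.1, 0 other CXC ligands and 1 CC, CX3C or XC ligand were called. TPM scaling called 1 CC, CX3C or XC ligand, 2 NF-kB genes, 6 AP-1 and C/EBP factors and 7 genes near the members. Upper quartile scaling called 2, 5 and 7 of the last 3 groups, and median-of-ratios scaling called 5 AP-1 and C/EBP factors. Protein-coding genes alone gave 2 CC, CX3C or XC ligands and 5 AP-1 and C/EBP factors. Without the intensity trend, 1 CC, CX3C or XC ligand and 0 shedding genes were called. Over the omissions of a library, counts ranged from 0 to 1 for other CXC ligands, for CC, CX3C and XC ligands and for shedding genes, from 4 to 6 for IL-1 and TNF genes, from 2 to 5 for AP-1 and C/EBP factors and from 3 to 10 for genes near the members. The 1 shedding gene called without control library 3 was lower, so it was not ADAM10.

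Libraries with equal replicate numbers showed no shared deviation, with correlations of -0.0405, -0.0349 and -0.101. This cannot settle whether they were paired in the experiment, which the labels do not say. A fit with a block for the replicate number called 3503 genes, 0 other CXC ligands, 0 shedding genes and 4 IL-1 and TNF genes. Among single genes not called, ADAM17 (-0.0469) turned to 0.0562 in TPM and 0.0270 with upper quartile scaling, and RELA (-0.0463) to 0.0772 and 0.0421. IL1A (-0.0184) turned to 0.0798, 0.0519 and, with median-of-ratios scaling, 0.0184, and ranged from -0.114 to 0.0622 over the omissions of a library. CEBPB (0.0534) ranged from -0.0131 without control library 2 to 0.1004 over these omissions. With 3 libraries per dose and counting error of 21.0% for CXCL16, changes of the lowest genes were beyond the reach of these data.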
